A study of Mus musculus with 7 samples.

Results

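Ly6G+ bone marrow cells that overexpress HMGA2 alone, with no RUNX1 mutation, were compared with Ly6G+ cells of the Control genotype. Genes enter the comparison where they reached 1 TPM or more in at least 1 of the 2 libraries, which kept 9388 of the 28987 genes listed. TPM is a length-normalized share of the transcripts in a library. The groups were HMGA2-OE Ly6G+ and Control Ly6G+, with RUNX1 mutant with HMGA2-OE (RUNX1mut/HMGA2-OE) Ly6G+ and RUNX1 mutant (RUNX1mut) Ly6G+ as a separate pair that differs by the same transgene label. Each Ly6G+ group is 1 library, so no difference here has a replicate check, an error or a p-value. HSC/P libraries, which hold CD117-selected stem and progenitor cells sorted for the mutant clone, are given as a second cell type, with 1 library of HMGA2-OE and a pair of RUNX1mut/HMGA2-OE. All mice were C57BL/6, the cells came from the bone marrow of individual mice, and the Ly6G+ cells carrying a mutant label were sorted as mutant. The labels do not say how HMGA2 and the RUNX1 change were introduced, which promoter drives HMGA2, whether hosts were transplanted or how old the mice were.

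HMGA2 is a small chromatin protein that binds AT-rich DNA in the minor groove. It is abundant in fetal stem cells, is held low in adult tissue by let-7 microRNAs, and acts on Igf2bp2, which encodes an RNA-binding protein. Ly6G marks mouse neutrophils. As these cells mature, they make primary granules with myeloperoxidase and serine proteases first, then secondary granules with lactoferrin and lipocalin, and last gelatinase granules and the receptors for chemotaxis.

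The target gene was higher in the library labelled HMGA2-OE. Hmga2 (ENSMUSG00000056758, chromosome 10, 120361275 to 120476469, mm10, minus strand) was at 3.72 TPM in HMGA2-OE Ly6G+ cells, against 1.45 TPM in Control Ly6G+ cells. It was at 12.1 TPM in RUNX1mut/HMGA2-OE Ly6G+ cells, against 1.36 TPM in RUNX1mut Ly6G+ cells, and 147 TPM was measured in HMGA2-OE HSC/P. The Ly6G+ level under HMGA2-OE was thus a small part of the level in HSC/P of the same label. The table does not separate endogenous from introduced transcripts. Runx1, the transcription factor of the other label, was at 3.36 TPM in HMGA2-OE and 3.85 TPM in Control. Its log2 ratio was 0.12 after the scaling described below.

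Both libraries carried neutrophil transcripts at high levels. Ly6g itself was at 269.6 TPM in HMGA2-OE and 414.6 TPM in Control. S100a8 and S100a9 encode the subunits of calprotectin, the main cytosolic protein of neutrophils. S100a8 alone made up 55.0% of TPM in HMGA2-OE and 44.3% in Control, and S100a9 made up 7.12% and 8.44% in HMGA2-OE and Control. The ratio of S100a8 to S100a9 was 7.72 in HMGA2-OE and 5.25 in Control. It was 0.216 in RUNX1mut/HMGA2-OE and 4.86 in RUNX1mut, so the pairs went in opposite directions. The 10 most abundant genes took 70.8% of TPM in HMGA2-OE, against 64.0% in Control. 8559 genes reached 1 TPM in HMGA2-OE and 9096 in Control, and the listed genes summed to 993009 TPM in HMGA2-OE and 990918 TPM in Control. Read depth is unknown, because TPM keeps no counts.

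Because a few transcripts take so large a share, HMGA2-OE values were multiplied by 1.27 before each log2 ratio, a factor taken from the genes found in both libraries. The log2 ratio is of HMGA2-OE over Control with 1 TPM added on each side, which understates differences of genes with low TPM. TPM values below are as deposited, and log2 ratios and fold values are after this scaling. Without scaling, the median log2 ratio of all genes would be -0.30 in place of -0.01. The sign of the median then turns in 24 of the 43 gene lists compiled, which are those with a median between 0.00 and 0.31 after scaling. Over all 9388 genes, 4504 (48.0%) had a log2 ratio above 0 after scaling and 1680 without it. For RUNX1mut/HMGA2-OE over RUNX1mut, scaled by its own factor, 5966 of 11067 genes (53.9%) were above 0, and 9830 without scaling.

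The ratios of the whole table fell into 2 classes by annotated transcript length. Of the 9388 genes, 331 (3.53%) were 2-fold or more higher in HMGA2-OE and 391 (4.16%) were 2-fold or more lower. Among the 2442 genes with an annotated transcript of 350 to 420 nt, 202 (8.27%) were higher and 276 (11.3%) lower. Among the 6946 genes with no such transcript, 129 (1.86%) were higher and 115 (1.66%) lower, and the standard deviation of the log2 ratio over genes was 0.437, against 1.12 in the first class. The window of lengths was chosen with these data known.

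Within that window the direction changed from one length to the next. Of 489 genes with a transcript of 369 to 378 nt, 190 (38.9%) were lower and 10 (2.04%) higher in HMGA2-OE. Of 554 genes with a transcript of 379 to 391 nt, 123 (22.2%) were higher and 44 (7.94%) lower. These runs of lengths hold at least 20% lower genes and then at least 10% higher genes at every length. From 392 to 420 nt, 8.09% of 1137 genes were higher and 6.24% lower. From 300 to 349 nt, 3.46% were higher and 4.44% lower, and from 421 to 500 nt the shares were 4.26% and 4.64%, higher and lower. In the RUNX1mut/HMGA2-OE over RUNX1mut pair, read by the same shares, the longest run with lower genes was 365 to 373 nt, with 34.1% of 475 genes lower and 2.32% higher. The longest run with higher genes inside the window was 403 to 420 nt there, with 24.9% of 843 genes higher and 4.63% lower. These runs overlapped those of the first pair for lower genes and not for higher ones. The end at 420 nt is the edge of the window, as 14.9% were still higher at 421 nt. From 421 to 500 nt in the RUNX1mut pair, 9.17% were higher and 5.07% lower, beside 4.79% and 4.02% from 501 to 700 nt. In that pair 5.36% of all 11067 kept genes were higher and 4.73% lower, with 9.22% and 13.7% among genes with a transcript in the window and 4.1% and 1.82% among those without. Between the 2 RUNX1mut/HMGA2-OE HSC/P libraries, 2.36% and 2.86% of genes with a 369 to 378 nt transcript were past 2-fold in the higher and the lower direction, beside 2.7% and 3.59% over the whole window. The part of library preparation or of transcript assignment in this pattern was not tested. Genes without a transcript in the window are therefore described first, and any gene with one is marked as having a short transcript.

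**Figure D1:**
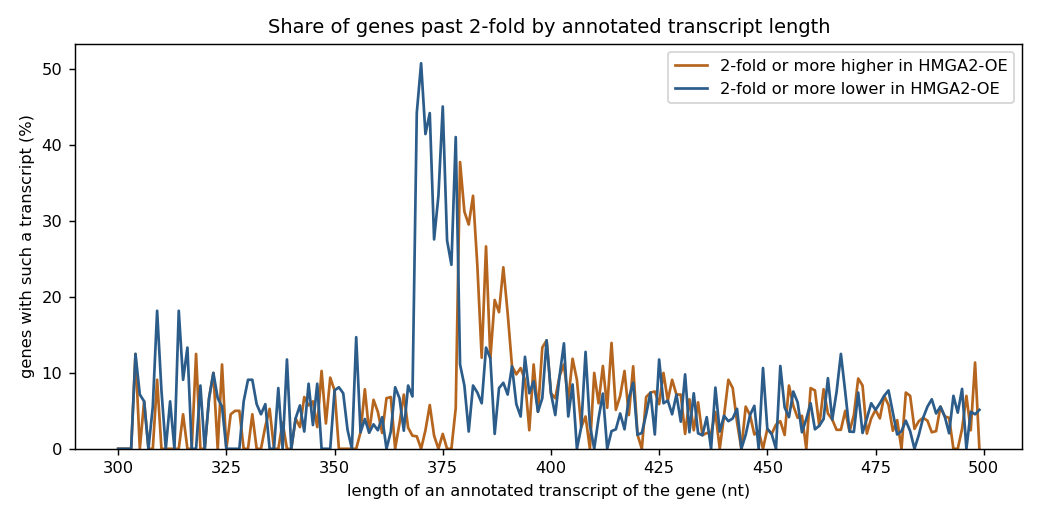
Share of genes 2-fold or more higher (orange) or lower (blue) in HMGA2-OE Ly6G+ than in Control Ly6G+, in percent, by the length in nucleotides of an annotated transcript of the gene, 1 library each. Lower genes peak between 369 and 378 nt and higher genes from 379 nt on. From 392 to 420 nt, 8.09% were higher and 6.24% lower, above the 3.53% and 4.16% of all genes. Shares from 300 to 349 nt and from 421 to 500 nt stay near those of all genes.

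The 2 RUNX1mut/HMGA2-OE HSC/P libraries, which share a label, differed by 2-fold or more in 7.09% of 9982 genes without a short transcript, 3.35% in the higher and 3.75% in the lower direction. They are of another cell type and genotype, so they do not measure how far 2 Ly6G+ libraries of the same label would differ. HMGA2-OE and Control Ly6G+ differed by 2-fold or more in 3.51% of 6946 genes without a short transcript. The share was 6.00% among genes at 1 to 2 TPM in the higher library and 2.35% among the 341 genes at 100 TPM or more, where 8 genes were higher and 0 lower. Rab2b, at 0.673 TPM in HMGA2-OE and 1.001 TPM in Control, lay just inside the limit of 1 TPM, and Hilpda, at 0.651 and 0.998 TPM in HMGA2-OE and Control, just outside.

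**Figure D2:**
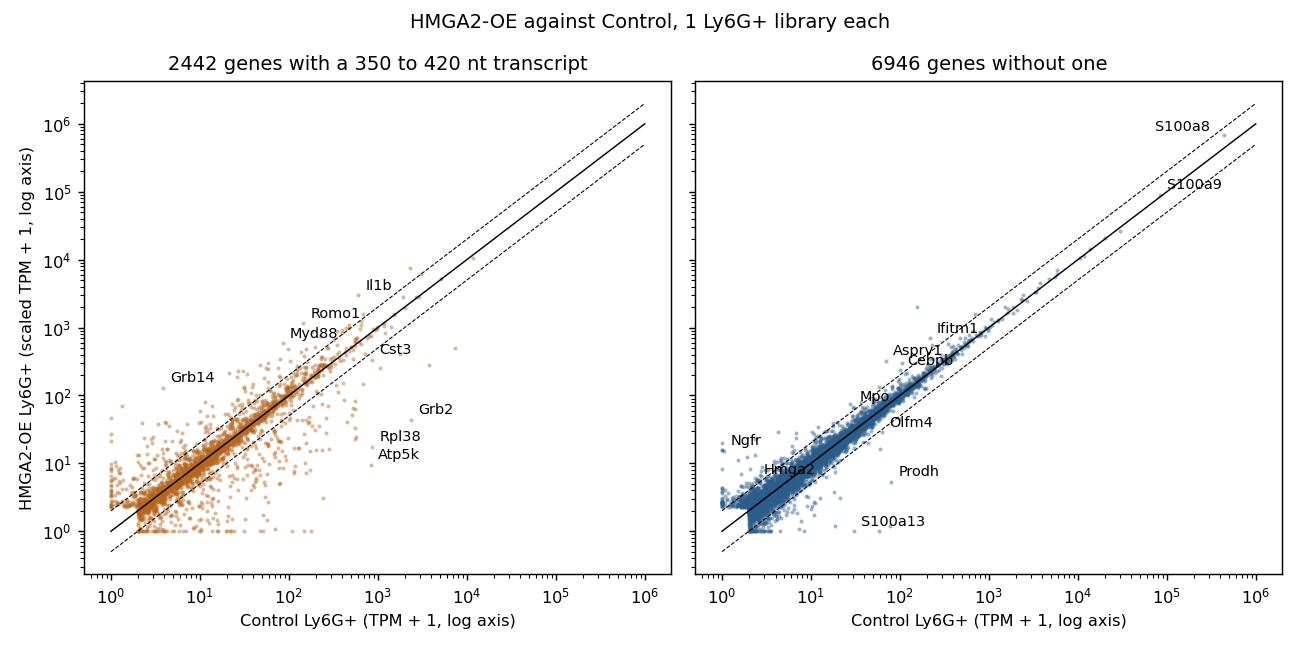
HMGA2-OE Ly6G+ (scaled TPM + 1) against Control Ly6G+ (TPM + 1) on log axes, each point 1 gene, with 2442 genes that have a 350 to 420 nt transcript on the left and 6946 that do not on the right. The solid line marks equal values and the dashed lines 2-fold. Points past 2-fold at high TPM lie mostly in the left panel.

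Genes of the HMGA2 axis other than Hmga2 and Igf2bp2 were close to the background. Igf2bp2 was at 2.94 TPM in HMGA2-OE and 0.168 TPM in Control, a log2 ratio of 2.02. It was at 29.7 TPM in RUNX1mut/HMGA2-OE and 0.0786 TPM in RUNX1mut, and HMGA2-OE HSC/P held 61.9 TPM, so both Ly6G+ libraries with HMGA2-OE lay above both without it. Igf2bp2 has a short transcript among its 11 annotated ones. The other kept members of this list, which holds let-7 targets and regulators, were between -0.21 and 0.25 on the log2 scale. Among them were Hmga1, the close relative of Hmga2, at 8.90 TPM in HMGA2-OE and 9.36 TPM in Control, and Nras, at 9.60 TPM in HMGA2-OE and 11.8 TPM in Control. Of 16 genes in the list 8 were kept, 2 were 2-fold higher and 0 lower, beside 3.53% and 4.16% of all genes higher and lower.

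Ngfr, the low-affinity nerve growth factor receptor, followed the HMGA2-OE label in every library. It was at 11.4 TPM in HMGA2-OE and 0.0477 TPM in Control Ly6G+ cells, a log2 ratio of 3.88. It was at 36.8 TPM in RUNX1mut/HMGA2-OE and 0.0562 TPM in RUNX1mut, and HMGA2-OE HSC/P held 172 TPM. Its single annotated transcript is 3446 nt long. Hmga2, Igf2bp2 and Ngfr were thus all far higher in HSC/P than in Ly6G+ cells of the same label.

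Genes of the primary granule were higher in HMGA2-OE as a group. All 12 members of the list were kept and all 12 had a log2 ratio above 0, beside 48.0% of all genes. The median was 0.64 and 4 of 12 were past 2-fold higher, beside 3.53% of all genes. Without scaling 8 of the 12 were above 0, beside 1680 of all 9388 genes, and the median was 0.37. Without the 2 members that have a short transcript, 3 of 10 were past 2-fold, beside 1.86%. Mpo, which encodes myeloperoxidase, was at 53.2 TPM in HMGA2-OE and 28.4 TPM in Control, 2.34-fold higher after scaling. Ctsg, which encodes the protease cathepsin G, was at 5.81 TPM in HMGA2-OE and 2.79 TPM in Control (2.22-fold). Prtn3, which encodes proteinase 3, was at 16.2 TPM in HMGA2-OE and 9.60 TPM in Control (2.04-fold). Elane, which encodes neutrophil elastase, was at 26.7 TPM in HMGA2-OE and 16.6 TPM in Control, with a log2 ratio of 0.99. All 4 also had a positive log2 ratio before scaling. Srgn, which encodes the granule proteoglycan serglycin, was at 523 TPM in HMGA2-OE and 319 TPM in Control and has a short transcript.

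The promoters of these 4 enzyme genes are shown because their ratios lay close together, between 0.99 and 1.23 on the log2 scale. Each runs from 250 bases before to 50 bases after the start of transcription in RefSeq (build GRCm38.p6), 5′ to 3′ on the strand of the gene. They lie at chr11:87793534-87793833 (Mpo, plus), chr10:79886062-79886361 (Elane, plus), chr10:79879417-79879716 (Prtn3, plus) and chr14:56102525-56102824 (Ctsg, minus). Capitals mark matches on either strand to GAGGAA, a core bound by PU.1, and to CNGTTA, a core bound by MYB.
Mpo: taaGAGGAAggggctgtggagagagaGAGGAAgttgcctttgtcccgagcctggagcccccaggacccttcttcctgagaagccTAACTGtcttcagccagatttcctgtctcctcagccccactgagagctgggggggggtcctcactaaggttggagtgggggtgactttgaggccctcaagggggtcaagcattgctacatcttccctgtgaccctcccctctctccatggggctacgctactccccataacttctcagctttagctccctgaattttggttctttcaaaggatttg
Elane: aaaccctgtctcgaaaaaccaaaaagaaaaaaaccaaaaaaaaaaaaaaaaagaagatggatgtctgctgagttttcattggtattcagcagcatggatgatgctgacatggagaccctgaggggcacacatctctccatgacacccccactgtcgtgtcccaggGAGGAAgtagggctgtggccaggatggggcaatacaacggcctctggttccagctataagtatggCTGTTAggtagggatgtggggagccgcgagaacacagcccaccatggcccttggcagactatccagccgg
Prtn3: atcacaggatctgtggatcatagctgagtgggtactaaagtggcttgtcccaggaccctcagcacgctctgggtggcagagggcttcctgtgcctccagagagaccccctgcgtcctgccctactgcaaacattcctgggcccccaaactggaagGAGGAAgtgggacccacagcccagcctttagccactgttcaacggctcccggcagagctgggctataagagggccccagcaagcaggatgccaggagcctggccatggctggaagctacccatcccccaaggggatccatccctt
Ctsg: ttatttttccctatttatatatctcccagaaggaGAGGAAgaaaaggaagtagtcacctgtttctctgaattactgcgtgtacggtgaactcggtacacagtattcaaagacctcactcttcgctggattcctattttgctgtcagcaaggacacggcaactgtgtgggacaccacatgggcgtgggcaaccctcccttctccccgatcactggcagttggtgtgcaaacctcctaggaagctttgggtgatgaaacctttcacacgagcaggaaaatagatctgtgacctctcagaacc

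GAGGAA occurred in each of the 4, with 2 matches in Mpo and 1 each in Elane, Prtn3 and Ctsg, and 28.3% of 32851 RefSeq promoters of this length hold it. CNGTTA occurred once in Mpo and once in Elane, and 23.3% of promoters hold it. TTNNGNAA, a loose form of the C/EBP site, had 0 matches in the 4 windows, and 40.7% of promoters hold it. No match overlapped another. Spi1, which encodes PU.1 and has a short transcript, was at 543 TPM in HMGA2-OE and 566 TPM in Control (0.29). Myb was at 3.98 TPM in HMGA2-OE and 5.06 TPM in Control.

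The primary granule genes are made early. Of the 12, 11 had more TPM in HMGA2-OE HSC/P than in either Ly6G+ library, Igsf6 being the exception. Most genes went this way: of 6702 within 2-fold and with no short transcript, 76.6% were higher in HMGA2-OE HSC/P than in Control Ly6G+. These TPM were not scaled between cell types, so the count of 11 does not by itself set this list apart. The 4 enzyme genes were far higher in the HSC/P library. In HMGA2-OE HSC/P, Mpo was at 2429 TPM, Prtn3 at 2488 TPM, Elane at 1359 TPM and Ctsg at 848 TPM. In a bulk library, fewer cells of a type and less RNA per cell cannot be told apart. Most stem and progenitor markers were below 1 TPM in both Ly6G+ libraries. Of 21 such markers 5 were kept, and 1 of the 5 had a log2 ratio above 0. Over all 21, the sum was 35.3 TPM in HMGA2-OE and 57.6 TPM in Control, with Procr at 0 in both and Myct1 at 0 in Control. Kit, with a short transcript, was at 3.43 TPM in HMGA2-OE and 5.202 TPM in Control, and Lmo2 at 12.9 TPM in HMGA2-OE and 23.8 TPM in Control. The part of progenitor cells in the ratios of primary granule genes was not tested.

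In the pair with the RUNX1 mutation the list had a median of -0.65 for RUNX1mut/HMGA2-OE over RUNX1mut, with 3 of 12 above 0. This value rests on the scaling of that pair, a factor of 0.647, since without it the median was -0.08 with 5 of 12 above 0, while the median of all genes was 0.57 in place of 0.03. Mpo was at 228 TPM in RUNX1mut/HMGA2-OE and 235 TPM in RUNX1mut, with a log2 ratio of -0.67 after scaling, and Elane was at 101 TPM in RUNX1mut/HMGA2-OE and 153 TPM in RUNX1mut. The difference between the pairs was not tested.

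**Figure D3:**
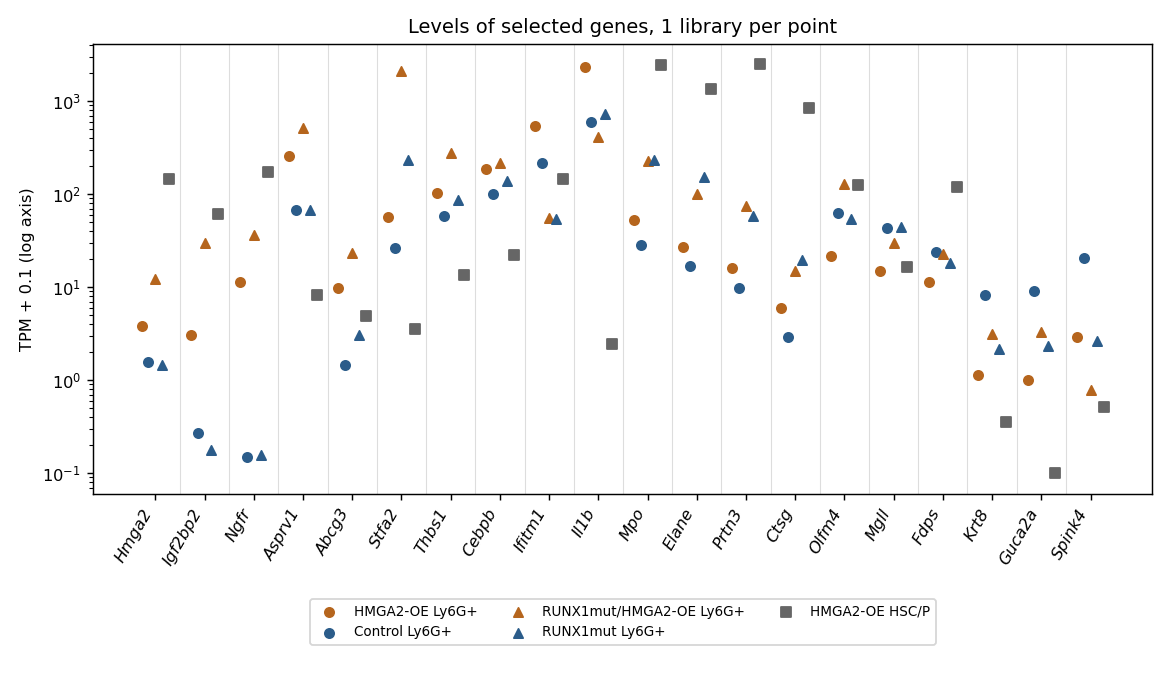
Levels of 20 genes (TPM + 0.1, log axis) in 5 libraries, each point 1 library: HMGA2-OE (orange) and Control (blue) Ly6G+ as circles, RUNX1mut/HMGA2-OE (orange) and RUNX1mut (blue) Ly6G+ as triangles, HMGA2-OE HSC/P as grey squares. Hmga2, Igf2bp2, Ngfr, Asprv1, Abcg3, Stfa2 and Thbs1 are higher with HMGA2-OE in both pairs, while Mpo, Elane, Ctsg and Il1b are higher with HMGA2-OE in the circles only.

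Transcripts of later granule proteins were close to equal. Of 20 secondary granule genes 19 were kept, with a median log2 ratio of 0.02, 0 of them 2-fold higher and 1 lower, near the 3.53% and 4.16% of all genes. Among the abundant members, Camp (cathelicidin) was at 8989 TPM in HMGA2-OE and 11840 TPM in Control, Lcn2 (lipocalin) at 8440 TPM in HMGA2-OE and 10629 TPM in Control, and Ngp at 20463 TPM in HMGA2-OE and 29874 TPM in Control. After scaling their log2 ratios were -0.05, 0.02 and -0.20. The member past 2-fold was Olfm4, which encodes a protein of secondary granules found in a subset of neutrophils. It was at 21.8 TPM in HMGA2-OE and 62.3 TPM in Control, a log2 ratio of -1.14. In the RUNX1mut pair it was at 130 TPM in RUNX1mut/HMGA2-OE and 53.4 TPM in RUNX1mut, a log2 ratio of 0.64 after scaling.

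Of 18 genes of gelatinase granules and secretory vesicles 17 were kept, with a median of 0.00, and 0 were 2-fold higher. Mmp8, which encodes a collagenase, was at 1408 TPM in HMGA2-OE and 2072 TPM in Control (-0.21), and Retnlg, a resistin-like gene, at 11391 TPM in HMGA2-OE and 13608 TPM in Control (0.09). Slc11a1, a metal transporter of phagosomes, was the member past 2-fold lower, at 82.5 TPM in HMGA2-OE and 227 TPM in Control, and has a short transcript. All 9 kept genes of the NADPH oxidase, which makes superoxide, were within 2-fold, with a median of 0.09. In that list, Ncf1 was at 453 TPM in HMGA2-OE and 541 TPM in Control (0.09). Without scaling, the medians of these 3 lists were -0.33, -0.35 and -0.26, close to that of all genes.

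Among genes at 20 TPM or more with no short transcript, chosen after their values were seen, Asprv1 had the highest ratio. It encodes an aspartic protease that neutrophils and skin express. It was at 256 TPM in HMGA2-OE and 68.0 TPM in Control (4.73-fold), and at 513 TPM in RUNX1mut/HMGA2-OE and 67.1 TPM in RUNX1mut. Ifitm1, a small interferon-induced membrane protein, was at 546 TPM in HMGA2-OE and 215 TPM in Control (3.22-fold). It was at 54.7 TPM in RUNX1mut/HMGA2-OE and 54.3 TPM in RUNX1mut, a log2 ratio of -0.60 after scaling. Cebpb, a C/EBP transcription factor used in emergency granulopoiesis, was at 184 TPM in HMGA2-OE and 100.2 TPM in Control (2.33-fold). In the RUNX1mut pair Cebpb was at 219 TPM in RUNX1mut/HMGA2-OE and 140 TPM in RUNX1mut, a log2 ratio of 0.02 after scaling. It was the 1 member of 14 kept neutrophil transcription factors past 2-fold, in a list with a median of 0.24 that turns to -0.10 without scaling. Cebpe, which drives secondary granule genes, was at 54.5 TPM in HMGA2-OE and 66.2 TPM in Control (0.07). Gfi1 was at 7.11 TPM in HMGA2-OE and 9.30 TPM in Control (-0.04), so both were close to equal after scaling.

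Others in this ranking were of mixed kinds. Thbs1, which encodes thrombospondin, was at 104 TPM in HMGA2-OE and 57.6 TPM in Control (2.28-fold). Clec4d, a C-type lectin that senses microbial lipids, was at 50.1 TPM in HMGA2-OE and 29.1 TPM in Control (2.15-fold). Apoe, an apolipoprotein, was at 61.1 TPM in HMGA2-OE and 35.5 TPM in Control, and Mif, a cytokine, at 29.9 TPM in HMGA2-OE and 16.8 TPM in Control. Oas1g, an oligoadenylate synthetase, was at 21.4 TPM in HMGA2-OE and 5.75 TPM in Control (4.18-fold). Jdp2, a partner of JUN, was at 31.2 TPM in HMGA2-OE and 18.5 TPM in Control. Aarsd1, Mlst8, Anxa6 and the antisense gene Slmapos2 were also between 2.03 and 2.85-fold higher. The reads of an antisense gene and its partner cannot be told apart here, since the labels do not say whether the strand was used.

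Fewer genes of this level were lower. Prodh, which encodes proline dehydrogenase, was at 3.43 TPM in HMGA2-OE and 79.2 TPM in Control, a log2 ratio of -3.90. At 4.59 TPM in RUNX1mut/HMGA2-OE and 3.53 TPM in RUNX1mut, the Control library stood apart from the other 3. S100a13, a calcium-binding protein, was at 0.00262 TPM in HMGA2-OE and 29.6 TPM in Control, and at 22.9 TPM in RUNX1mut/HMGA2-OE and 14.3 TPM in RUNX1mut, so here HMGA2-OE stood apart. Nosip, which binds nitric oxide synthase, was at 12.0 TPM in HMGA2-OE and 59.3 TPM in Control (-1.89). Mgll, which encodes monoglyceride lipase, was at 14.96 TPM in HMGA2-OE and 43.1 TPM in Control (-1.14), and at 29.7 TPM in RUNX1mut/HMGA2-OE and 44.0 TPM in RUNX1mut. The other genes in this ranking, from Iglc2 at -0.92 to Map1lc3a at -0.65, did not reach 2-fold.

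Stefins are inhibitors of cysteine proteases encoded in a cluster of near-identical genes, and most kept genes of this cluster were higher. Stfa2 was at 57.2 TPM in HMGA2-OE and 26.5 TPM in Control (2.69-fold). With a short transcript, Stfa2l1 was at 663 TPM in HMGA2-OE and 390 TPM in Control (1.11). Stfa3, also with one, was at 33.2 TPM in HMGA2-OE and 24.1 TPM in Control (0.78). Stfa1 was at 138 TPM in HMGA2-OE and 191 TPM in Control (-0.12). Cst3, which encodes cystatin C and has a short transcript, was at 262 TPM in HMGA2-OE and 857 TPM in Control. It is in the list but lies outside the cluster, on chromosome 2. Of 7 kept genes in the list 3 were 2-fold higher and 1, Cst3, lower, beside 3.53% and 4.16% of all genes. The list median was 0.78, or 0.44 without scaling. Over the 3 members with no short transcript the median was -0.11, with 1 above 0. The division of reads among the Stfa copies is uncertain. In RUNX1mut/HMGA2-OE, Stfa2 was at 2126 TPM, against 231 TPM in RUNX1mut.

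Interferon response genes of the list were slightly higher together, with none of its kept members past 2-fold. Oas1g (4.18-fold) and Ifitm1 (3.22-fold), given above, are not members of the list. Of 36 listed genes 29 were kept, and 26 of 29 had a log2 ratio above 0, beside 48.0% of all genes. The median was 0.36, which becomes 0.02 without scaling. Oas1a, an RNA sensor, was at 28.4 TPM in HMGA2-OE and 19.7 TPM in Control (0.85). Ifit1 was at 7.29 TPM in HMGA2-OE and 4.87 TPM in Control (0.81), and Gbp2, a guanylate-binding protein, at 7.56 TPM in HMGA2-OE and 5.14 TPM in Control (0.79). Slfn4, a Schlafen gene of myeloid cells, was at 102 TPM in HMGA2-OE and 184 TPM in Control (-0.50). In RUNX1mut/HMGA2-OE over RUNX1mut the median of the list was -0.21 and 7 of 29 were above 0, but without scaling the median was 0.34 and 24 of 29 were above 0. The difference between the pairs was not tested.

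Class I antigen presentation had members in both directions. H2-Q7 was at 11.7 TPM in HMGA2-OE and 5.39 TPM in Control (1.31), and H2-Q6 at 10.8 TPM in HMGA2-OE and 5.17 TPM in Control (1.25). These genes are near-identical copies, so their separate values are uncertain. H2-K1 was at 272 TPM in HMGA2-OE and 216 TPM in Control (0.68), and B2m at 691 TPM in HMGA2-OE and 669 TPM in Control (0.39). Tap2, a peptide transporter with a short transcript, was at 36.4 TPM in HMGA2-OE and 101 TPM in Control. The median of 12 kept genes was 0.13 and turns to -0.12 without scaling.

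Cytokine, chemotaxis and Toll-like receptor genes past 2-fold mostly had a short transcript. Il1b, which encodes interleukin 1 beta, was at 2337 TPM in HMGA2-OE and 597 TPM in Control, a log2 ratio of 2.31, and its shortest annotated transcript is 379 nt long. It was at 415 TPM in RUNX1mut/HMGA2-OE and 722 TPM in RUNX1mut. Myd88, the adaptor of Toll-like receptors, was at 464 TPM in HMGA2-OE and 84.7 TPM in Control (6.90-fold). Tlr8, a sensor of RNA, was at 23.4 TPM in HMGA2-OE and 11.04 TPM in Control, and Irak1, a kinase of the same pathway, at 57.1 TPM in HMGA2-OE and 29.0 TPM in Control. All 4 have a short transcript. Of 9 kept Toll-like receptor genes without one, 0 were past 2-fold. Tlr2 was at 57.8 TPM in HMGA2-OE and 48.8 TPM in Control (0.58), and Tlr4 at 9.67 TPM in HMGA2-OE and 11.1 TPM in Control (0.14). The medians of the Toll-like receptor list (0.20) and the chemotaxis and cytokine list (0.21) turn to -0.12 and -0.13 without scaling.

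Receptors that guide neutrophils differed little. Cxcr2 was at 311 TPM in HMGA2-OE and 287 TPM in Control (0.46), and Csf3r, the receptor for G-CSF, at 556 TPM in HMGA2-OE and 534 TPM in Control (0.41). Cxcr4, which holds neutrophils in the marrow, was at 13.5 TPM in HMGA2-OE and 14.8 TPM in Control (0.20). Ccl3, a chemokine, was at 2.89 TPM in HMGA2-OE and 1.18 TPM in Control (1.11), without a short transcript. In C-type lectin and Fc receptors, 2 of 12 kept genes were 2-fold higher, Clec4d and Clec4n, beside 3.53% of all genes. Of these, Clec4n has a short transcript, and 1 of the 9 kept genes without one was past 2-fold. NF-kB targets and immediate early genes had medians of -0.01 and 0.06 and 0 members past 2-fold. In these lists, Nfkbia was at 93.6 TPM in HMGA2-OE and 96.5 TPM in Control (0.30), and Fos at 97.8 TPM in HMGA2-OE and 192 TPM in Control (-0.62).

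Genes of sterol and fatty acid synthesis were lower in HMGA2-OE. Of 20 genes 15 were kept, 14 of them with a log2 ratio below 0 and 1 above, beside 48.0% of all genes above. The median was -0.42, or -0.74 without scaling. Among the 11 with no short transcript the median was -0.39. Fdps, a synthase of the mevalonate pathway, was at 11.2 TPM in HMGA2-OE and 23.7 TPM in Control (-0.70). Sqle, which acts on squalene, was at 1.02 TPM in HMGA2-OE and 2.55 TPM in Control (-0.63). Lss, which makes lanosterol and has a short transcript, was at 0.632 TPM in HMGA2-OE and 5.61 TPM in Control. Srebf2, the transcription factor of the pathway, was at 11.6 TPM in HMGA2-OE and 19.99 TPM in Control (-0.42). For RUNX1mut/HMGA2-OE over RUNX1mut the median was -0.27, with 2 of 15 above 0, and without scaling it was 0.28, with 12 of 15 above 0. Many of these genes were at a few TPM, where the depth behind a value is unknown.

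Cell cycle genes were slightly lower. All 32 were kept, with a median of -0.18 and 10 of 32 above 0, beside 48.0% of all genes. Of them 1, Cdk1, was past 2-fold lower and has a short transcript. Top2a was at 17.9 TPM in HMGA2-OE and 24.4 TPM in Control (-0.10), and Mki67 at 4.97 TPM in HMGA2-OE and 7.26 TPM in Control (-0.17). Some replication genes of the same list were on the other side. Mcm6 was at 8.53 TPM in HMGA2-OE and 8.03 TPM in Control (0.39), and Mcm3 at 5.23 TPM in HMGA2-OE and 5.05 TPM in Control (0.34). Others were not, such as Rrm2, a subunit of ribonucleotide reductase, at 24.9 TPM in HMGA2-OE and 37.4 TPM in Control (-0.23), and Mcm7 at 8.07 TPM in HMGA2-OE and 10.6 TPM in Control (-0.05).

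Ribosomal protein genes had a median of 0.17, with 21 of 25 above 0 and 0 past 2-fold, and turn to -0.17 without scaling. Heat shock and chaperone genes had a median of 0.36, or 0.04 without scaling, with 7 of 7 above 0 and 0 past 2-fold. Of all genes, 48.0% were above 0 after scaling. Glycolysis genes had a median of 0.11, which turns to -0.23 without scaling. Of these, Slc2a1, a glucose transporter, was the 1 gene past 2-fold, at 19.2 TPM in HMGA2-OE and 11.1 TPM in Control (1.07). Mitochondrially encoded, nuclear oxidative phosphorylation, proteasome and lysosome genes had medians between -0.05 and 0.02. Histone genes had a median of -0.26, with 4 of 13 above 0. Hist1h1e, a linker histone, was at 12.4 TPM in HMGA2-OE and 29.7 TPM in Control (-0.87).

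**Figure D4:**
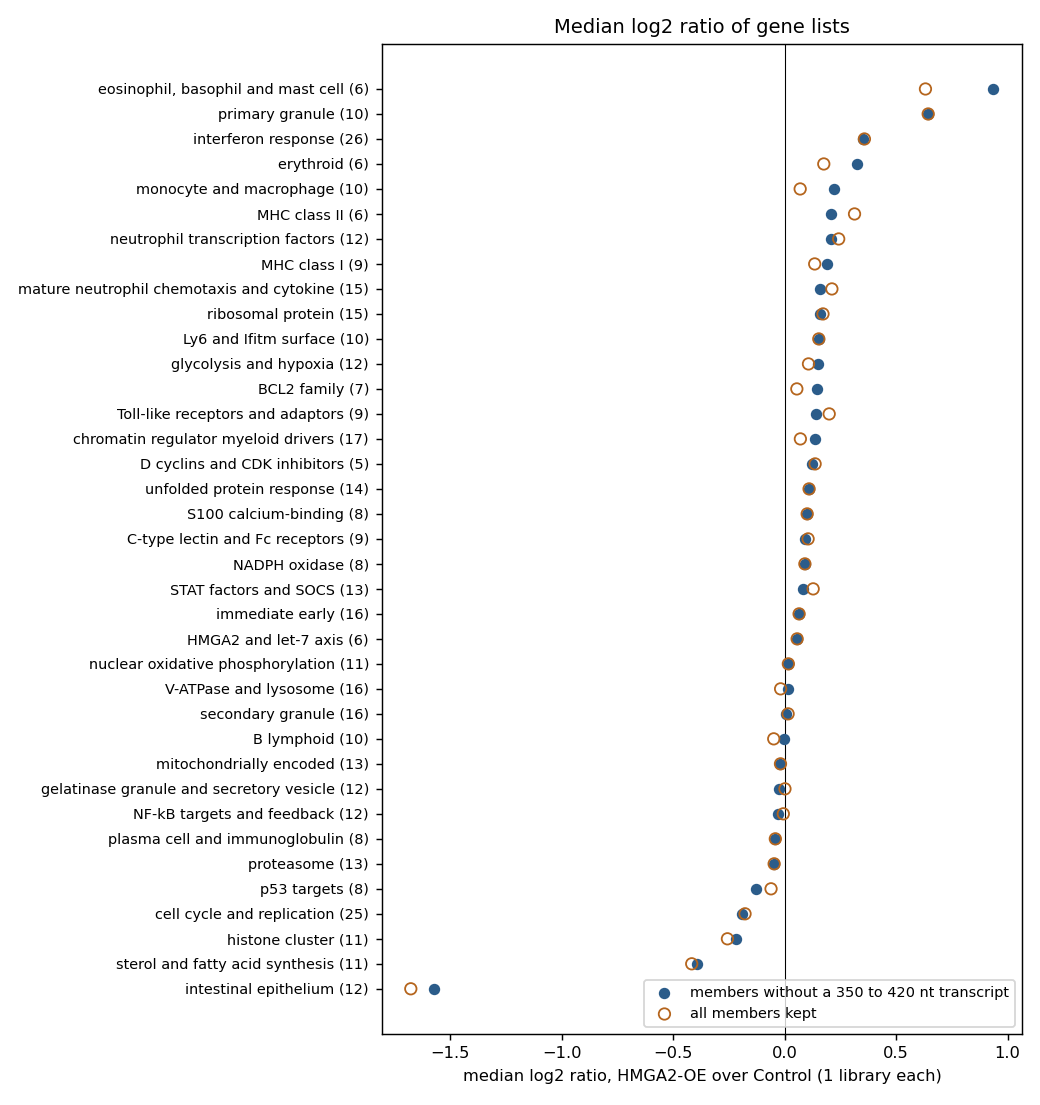
Median log2 ratio of HMGA2-OE over Control Ly6G+ for each gene list with at least 5 kept members that have no 350 to 420 nt transcript, 1 library each, with their number in brackets. Filled points leave out genes with such a transcript and open points hold all kept members. Eosinophil, basophil and mast cell genes (0.94) lie furthest to the right among the filled points, primary granule genes (0.64) and interferon response genes also lie to the right, and sterol and intestinal genes to the left.

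Genes of intestinal epithelium, a list made after the values were seen, were higher in Control. Of 28 such genes 17 were kept, 16 of 17 were 2-fold lower in HMGA2-OE, beside 4.16% of all genes, and the median was -1.68. The 28 summed to 30.2 TPM in HMGA2-OE and 161 TPM in Control, and to 79.8 TPM in RUNX1mut/HMGA2-OE and 41.0 TPM in RUNX1mut. Guca2a, a peptide hormone of the gut, was at 0.908 TPM in HMGA2-OE and 9.07 TPM in Control, and Krt8, an epithelial keratin, at 1.04 TPM in HMGA2-OE and 8.13 TPM in Control. Muc2, the mucin of goblet cells, with a short transcript, was at 0.406 TPM in HMGA2-OE and 4.64 TPM in Control. Guca2a and Muc2 were at 0 in HMGA2-OE HSC/P. The part of other cells in the Control library in the lower genes described here was not tested.

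Markers of other blood cells were found in both libraries at different levels. T and NK cell genes summed to 32.4 TPM in HMGA2-OE and 18.5 TPM in Control, with 5 of 18 kept and Cd8b1 at 0 in HMGA2-OE. Of these 5, 4 were 2-fold higher, beside 3.53% of all genes, and the median was 1.17. Cd3d was at 10.2 TPM in HMGA2-OE and 5.25 TPM in Control. Eosinophil, basophil and mast cell genes summed to 402 TPM in HMGA2-OE (512 TPM after scaling) and 439 TPM in Control. Of 9 kept genes in that list 2 were 2-fold higher, beside 3.53% of all genes. The median was 0.63, or 0.94 over the 6 with no short transcript. In that list, Mcpt8, a basophil protease, was at 5.53 TPM in HMGA2-OE and 2.07 TPM in Control (1.39), and Prg2, an eosinophil granule protein, at 8.24 TPM in HMGA2-OE and 4.37 TPM in Control (1.10). Mcpt8 and Prg2 hold a small part of the sum of that list. Monocyte and macrophage genes summed to 1131 TPM in HMGA2-OE (1440 TPM after scaling) and 1532 TPM in Control. Of the deposited sums, Ly6c2, also made by neutrophils, took 1033 TPM in HMGA2-OE and 1411 TPM in Control. Of 13 kept monocyte and macrophage genes 3 were 2-fold higher, beside 3.53% of all genes. Ccr2 was at 2.82 TPM in HMGA2-OE and 0.644 TPM in Control, and F13a1 at 4.36 TPM in HMGA2-OE and 1.75 TPM in Control.

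B lymphoid genes summed to 103 TPM in HMGA2-OE (131 TPM after scaling) and 141 TPM in Control. Erythroid genes summed to 146 TPM in HMGA2-OE (186 TPM after scaling) and 176 TPM in Control, so their direction depends on the scaling. Their median log2 ratios were -0.05 for B lymphoid and 0.18 for erythroid genes, or -0.30 and -0.16 without scaling. Of 8 kept plasma cell and immunoglobulin genes, a list made after the values were seen, 2 were 2-fold higher and 1 lower, 3 were above 0, and the median was -0.04, beside 3.53% and 4.16% of all genes higher and lower. Ighg1 was at 16.9 TPM in HMGA2-OE and 1.37 TPM in Control, and Ighg2b at 8.09 TPM in HMGA2-OE and 0.505 TPM in Control. By contrast, Igkc was at 42.1 TPM in HMGA2-OE and 45.4 TPM in Control (0.23). Ighg2c was lower, at 0.135 TPM in HMGA2-OE and 1.92 TPM in Control, and Ighm was at 26.1 TPM in HMGA2-OE and 42.3 TPM in Control (-0.34). Primary granule genes are also made by monocyte precursors, and eosinophil, basophil and mast cell genes had a similar median. The part of such cells in the ratios of primary granule genes was not tested.

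The largest ratios of the whole table belonged to genes with a short transcript. All 15 genes with the highest ratio at 20 TPM or more had one, and so did 14 of the 15 with the lowest. Of the 15 highest, 13 had a transcript of 379 to 391 nt and 0 had one of 369 to 378 nt. Of the 15 lowest, 11 had a transcript of 369 to 378 nt and 4 had one of 379 to 391 nt. Grb14, an adaptor of the insulin receptor, was at 102 TPM in HMGA2-OE and 2.84 TPM in Control, and Romo1, a mitochondrial protein, at 912 TPM in HMGA2-OE and 143 TPM in Control. Atp5k, a subunit of ATP synthase, was at 6.67 TPM in HMGA2-OE and 829 TPM in Control, and at 14.5 TPM in RUNX1mut/HMGA2-OE and 635 TPM in RUNX1mut. Grb2, an adaptor of receptor kinases, was at 33.9 TPM in HMGA2-OE and 2365 TPM in Control. Rpl38, a ribosomal protein gene, was at 13.02 TPM in HMGA2-OE and 857 TPM in Control, while the 25 ribosomal protein genes of the list were all within 2-fold.

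The others in the higher ranking were Myh14, Klf11, Ankrd37, Mbtps2, Rpl10a, Arhgap27, Hist1h2an, Ino80e, Prr5l, Myd88, Cox15, Lhx1 and Chchd7, with folds between 5.88 and 52.3. In the lower ranking, Tmem254a was listed at 0 in HMGA2-OE and 50.8 TPM in Control, and Tfap2c at 0 in HMGA2-OE and 22.9 TPM in Control. Clone names and pseudogenes made up 93 of the 331 higher and 97 of the 391 lower genes and are not named.

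The RUNX1mut pair shares no library with the HMGA2-OE and Control pair. Genes with a transcript of 421 to 500 nt, of which 9.17% were higher in the RUNX1mut pair, stay in unless they also have a short transcript. Of 6810 genes kept in both pairs with no short transcript, 112 (1.64%) were 2-fold higher in HMGA2-OE than in Control, and 182 (2.67%) were in RUNX1mut/HMGA2-OE than in RUNX1mut. In both pairs 30 were higher, which is 26.8% of the first list and 16.5% of the second. For lower genes the counts were 84 (1.23%) and 102 (1.5%), with 18 in both, 21.4% of the first list and 17.6% of the second. In 20 genes HMGA2-OE was higher than Control while RUNX1mut/HMGA2-OE was lower than RUNX1mut, and in 6 the reverse held.

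The genes higher in both pairs included Ngfr, Asprv1, Stfa2, Hmga2, Thbs1, Mlst8 and Anxa6. Abcg3, an ABC transporter of rodents, was at 9.65 TPM in HMGA2-OE and 1.35 TPM in Control, and at 23.4 TPM in RUNX1mut/HMGA2-OE and 2.93 TPM in RUNX1mut. Ms4a6b, a membrane protein of myeloid cells, was at 1.63 TPM in HMGA2-OE and 0.304 TPM in Control, and at 31.9 TPM in RUNX1mut/HMGA2-OE and 7.14 TPM in RUNX1mut. Slc2a9, a urate transporter, was at 6.70 TPM in HMGA2-OE and 3.76 TPM in Control, and at 64.6 TPM in RUNX1mut/HMGA2-OE and 10.5 TPM in RUNX1mut. Of these, those with the most TPM in the HMGA2-OE Ly6G+ library were Asprv1, Thbs1 and Stfa2. The shortest annotated transcripts of Stfa2, Ms4a6b and Slc2a9 are 471, 429 and 427 nt long, not far past the window.

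Lower in both pairs were Mcam, Cdc42ep2, Mgll, Lmo1 and Igll1. Mcam, a cell adhesion molecule, was at 1.09 TPM in HMGA2-OE and 9.29 TPM in Control, and at 7.83 TPM in RUNX1mut/HMGA2-OE and 30.0 TPM in RUNX1mut. Cdc42ep2, an effector of the GTPase Cdc42, was at 2.22 TPM in HMGA2-OE and 17.1 TPM in Control, and at 1.81 TPM in RUNX1mut/HMGA2-OE and 5.75 TPM in RUNX1mut. Lmo1, a transcriptional cofactor, was at 6.24 TPM in HMGA2-OE and 17.1 TPM in Control, and at 0.407 TPM in RUNX1mut/HMGA2-OE and 3.02 TPM in RUNX1mut. Of the genes with a short transcript, Sema4d, a semaphorin, was higher in both pairs, at 198 TPM in HMGA2-OE and 74.6 TPM in Control.

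**Figure D5:**
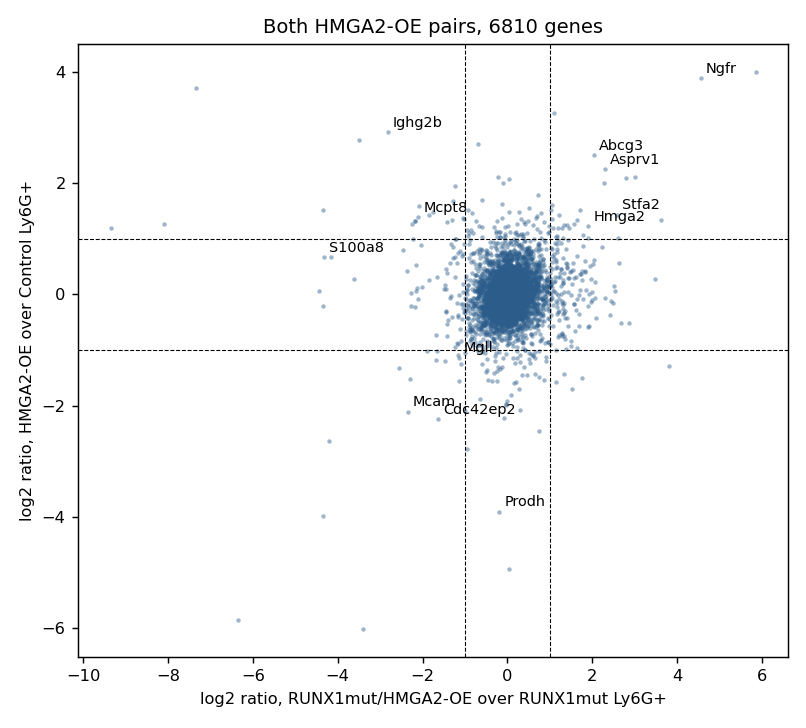
Log2 ratio of HMGA2-OE over Control (vertical) against that of RUNX1mut/HMGA2-OE over RUNX1mut (horizontal) in Ly6G+ cells, 6810 genes with no 350 to 420 nt transcript, 1 library per group. Dashed lines mark 2-fold. Ngfr, Abcg3, Asprv1 and Hmga2 lie at the upper right and Mcam and Cdc42ep2 at the lower left, while S100a8 is above 0 in the first pair and at -4.33 in the second.

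Levels in HMGA2-OE HSC/P were set beside those of the genes past 2-fold. Of the 129 higher genes with no short transcript, 85 (65.9%) had more TPM in HMGA2-OE HSC/P than in Control Ly6G+ cells. This compares with 36 of 115 (31.3%) lower genes and 76.6% of the 6702 other genes. The Control level helped to choose the higher and lower genes, so these shares are descriptions. The median level of the 129 was 3.35 TPM in HMGA2-OE HSC/P, 3.72 TPM in HMGA2-OE Ly6G+ and 1.13 TPM in Control Ly6G+ cells. Of the higher genes named above, HMGA2-OE HSC/P held 8.12 TPM of Asprv1, 21.8 TPM of Cebpb and 13.3 TPM of Thbs1, all below their Ly6G+ levels, while Mpo and Mif (675 TPM) were above them.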

How the data were processed

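Total RNA of sorted bone marrow cells was sequenced by the authors. Per the submitters' processing notes, bcl2fastq, CASAVA 1.8 and kallisto were used with mm10. No index or kallisto version is named in the labels. The values deposited by the authors are TPM, as read from the values: they are not whole numbers, and each of the 7 columns sums to nearly the same total (896820 to 993009). Depth is thus unknown, and no interval or floor is given. Symbols, coordinates and transcript lengths came from GENCODE M21 (27458 of 28987 identifiers matched). 135 kept genes had no transcript length and count as having no short transcript.

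Genes with 1 TPM or more in either library were kept. HMGA2-OE values were multiplied by a trimmed mean of log ratios (trims 0.3 and 0.05; 1.27, and 0.647 for RUNX1mut/HMGA2-OE to RUNX1mut), 1 TPM was added, and 2-fold or more was called. There are no tests, since each Ly6G+ group is 1 library, and nothing says what a repeat would vary. Named are the label genes, the 15 highest and 15 lowest ratios at 20 TPM or more with clone names and pseudogenes left out, up to 4 members of each list at 5 TPM or more, and genes 2-fold the same way in both pairs. Other genes were chosen after their values were seen. Members and all 43 lists, with 735 memberships of which 724 are in the table, were chosen with earlier results of these data known. 2 lists were added later. Some genes are not reported here. The calling code was run on simulated libraries with less spread than these and no effect of transcript length. That run does not bear on the calls above. Python 3.11.15, numpy 2.4.6, pandas 2.3.3 and matplotlib 3.10.9 were used.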

Additional observations from a re-analysis of the deposited data

Results flagged for a closer look

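These genes were 2-fold or more higher in HMGA2-OE than in Control and 2-fold or more lower in RUNX1mut/HMGA2-OE than in RUNX1mut, with 1 library per group, and the difference between the pairs was not tested. Among genes with a short transcript, the log2 ratio was 3.34 for Mbtps2 (-2.49 in the RUNX1mut pair), 3.01 for Romo1 (-2.51), 2.99 for Hist1h2an (-1.58), 2.84 for Ino80e (-1.94), 2.62 for Cox15 (-1.73), 2.56 for Lhx1 (-3.43) and 2.31 for Il1b (-1.42). Among genes without one, it was 1.31 for H2-Q7 (-2.17), 1.25 for H2-Q6 (-2.24), 1.39 for Mcpt8 (-2.10) and 2.91 for Ighg2b (-2.82). H2-Q6 and H2-Q7 are near-identical copies.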

How the results depend on the processing

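A single library per group and unknown depth limit every value. The counts reported are 331 higher and 391 lower genes, 188 the same way in both pairs, 10 lists with a median at least 0.25 from 0, and a Hmga2 log2 ratio of 1.23. Without scaling there were 218 higher and 497 lower genes and 21 such lists. With 5 TPM added the counts were 153 higher, 205 lower and 110 the same way, with Hmga2 at 0.59. With at least 5 TPM in either library there were 204 higher and 248 lower genes, and Hmga2 has no value. With 1 TPM in both, 207 were higher, 201 lower and 121 the same way. With genes of a 350 to 420 nt transcript left out the counts were 129, 115 and 48, with 5 lists. With those of 369 to 391 nt left out, chosen after seeing the data, they were 204, 171 and 77. In these 2 settings and with filters, fewer genes were counted. Of 2192 values for 213 single genes, 42 moved by more than 0.601, the standard deviation over genes of the log2 ratio between the 2 RUNX1mut/HMGA2-OE HSC/P libraries, 15 with 0.1 TPM and 27 with 5 TPM added, and 0 called values changed sign. Scaling shifts a log2 ratio by at most 0.35 and so could not reach that size. The sign of the median turned in 24 of 43 lists without scaling, in 6 of 42 with at least 5 TPM in either library, and in 0 to 4 of 43 in the other settings. No paired analysis was possible because each Ly6G+ group has 1 library.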
